A study of Zea mays with 9 samples.

Results

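Maize seeds that received salt together with melatonin (NaCl+MT) were compared with control seeds (CK) by RNA sequencing, with 3 libraries in each group. The tissue of all libraries is seed at the germination stage, and the series as a whole holds 9 libraries, the other 3 being of seeds under salt without melatonin (NaCl). CK commonly stands for an untreated control; the labels name the treatments but state no genotype, seed age, dose or duration, nor the order in which melatonin and salt were applied. The labels call the replicates biological without saying how many seeds or which seed batches went into each. P-values set group differences against the spread between these libraries, estimated with information shared across genes. Which population of seeds that spread stands for is not known. All genes with an FPKM (mapped fragments, corrected for gene length and for the size of the library) of at least 1 in 3 or more of the 6 libraries were tested, which kept 21760 of the 39301 genes in the deposited table. The 3 NaCl libraries did not enter this fit and are given beside it as a reference.

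During germination a seed takes up water, restarts metabolism, draws on its reserves and begins cell division and elongation in the embryo axis. Salt limits water uptake and brings in sodium and chloride, and plants answer with abscisic acid signalling, chaperones, compatible solutes, detoxifying enzymes and ion transport. Melatonin is an indoleamine that plants make from tryptophan, the precursor it shares with the hormone auxin, and is studied as a protectant under abiotic stress.

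Depth per library is not given; relative depth, estimated from the spacing of the lowest FPKM values with CK replicate 1 set to 1, was 1, 1.83 and 1.27 in CK, 0.966, 1.01 and 0.889 in NaCl+MT, and 0.54 to 1.26 in NaCl. The factor for CK replicate 2 was open by a factor of 2, settled from finer steps, and is the least certain. Pearson correlations of log2(FPKM + 1) ran from 0.972 to 0.983 among CK libraries, from 0.973 to 0.992 among NaCl+MT libraries and from 0.946 to 0.977 between these groups. Isocitrate lyase (ICL), the glyoxylate cycle enzyme of oil-using seedlings, stood at 1623, 2582 and 2117 FPKM in CK and 2394, 2189 and 2336 in NaCl+MT, ranges that overlapped. Of 32 endosperm storage protein and regulator genes, 1 passed the filter and 14 were listed at 0 in all 6 libraries, with a summed level of 4.17 to 8.78 FPKM in CK and 6.26 to 6.69 in NaCl+MT. The zeins among them were thus low, which does not tell whether endosperm was part of the samples. In such bulk samples, fewer cells of a type and less RNA per cell cannot be told apart.

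Seeds under salt plus melatonin differed from control in 1075 genes, 4.94% of those tested, at a limma adjusted p (Benjamini-Hochberg over all tested genes, 2-sided) under 0.05. Of these, 791 genes (3.64%) were higher and 284 (1.31%) lower than in CK. The changes were mostly modest: the median log2 fold change was 0.83 in the higher and -0.90 in the lower genes, 215 genes rose and 112 fell by at least 1, and the extremes were 2.08 and -2.95. Fold changes are differences of mean log2(FPKM + 1), a scale that understates the change of genes near 0. The median over all tested genes was 0.06, and the higher genes were 73.6% of those called as deposited, 53.3% after median-ratio scaling and 50.3% after quantile normalisation, so the balance of rises and falls depends on the scaling. With 1 library left out at a time, the counts ran from 187 (without NaCl+MT replicate 3) to 425 (without CK replicate 3) higher and from 104 (without NaCl+MT replicate 3) to 164 (without CK replicate 3) lower; 134 higher and 71 lower genes were called in all 6 of these fits. A fit over all 9 libraries with a shared spread called 187 higher and 72 lower genes, and one without the filter on low values 208 and 95. Of the 64 genes named below by rule, 52 were called, 16 of them under every alternative that gave a value. A minimum of 5 FPKM gave none for 14 of the 64, among them PIN9, PPDK2 and CCD8 of these 16. By this rule, called genes with a name were picked among those whose CK and NaCl+MT libraries did not overlap. Their lack of overlap was thus set by the choice and adds nothing to the call.

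**Figure D1:**
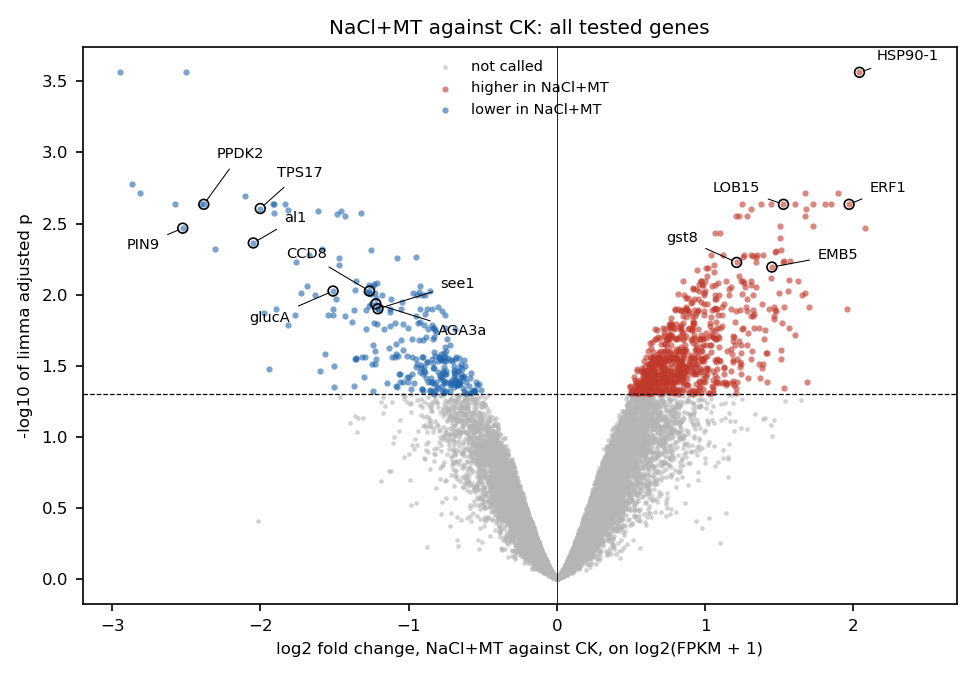
Each point is 1 of the 21760 tested genes, with its log2 fold change between NaCl+MT and CK on the log2(FPKM + 1) scale (x) and the negative log10 of its limma adjusted p (y); the dashed line is the threshold of 0.05. The 791 genes called higher reach 2.08 on the x axis and the 284 called lower reach -2.95, and the circled genes are described in the text.

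The same CK libraries served to measure what salt alone did, and 4123 of 21657 tested genes (19.0%) were called in NaCl against CK. Between NaCl+MT and NaCl, 3047 of 21938 genes (13.9%) were called. Set beside the salt values, the 1075 genes that set NaCl+MT apart from CK fell into 3 main kinds. A first 548 genes, 374 higher and 174 lower, were called in the same direction in NaCl. In the higher ones the median log2 fold change was 0.91 in NaCl+MT and 1.17 in NaCl, and in the lower ones it was -0.91 and -1.64. These medians rest in part on the choice of genes called in both fits, whose spreads differed. Over the tested genes, the median SD of log2(FPKM + 1) was 0.243 in NaCl, 0.185 in CK and 0.15 in NaCl+MT. In 144 of the 548, NaCl+MT lay between CK and NaCl with both differences called, and in 4 it was called past NaCl. A second 275 genes, 220 higher and 55 lower, were not called in NaCl and lay within 0.5 log2 of CK there. With the wider spread of the NaCl libraries, a missing call does not show that salt left a gene unchanged. Of the 275, 86 were also called against NaCl in the same direction. That test reuses the NaCl+MT libraries by which the genes were chosen, so its direction was largely set by the choice. A further 22 genes, 20 higher in NaCl+MT and 2 lower, were called in the opposite direction in NaCl. In place of 548, 275 and 22 genes, leaving out any single CK or NaCl+MT library gave fewer: at the lowest 173 (without CK replicate 1), 44 and 1 (both without NaCl+MT replicate 3). The fit over all 9 libraries gave 190, 42 and 3. The remainder comprised 128 higher and 53 lower genes that were not called in NaCl but moved by over 0.5 there, and 49 higher genes that did not pass the filter in NaCl and CK. Because both fold changes subtract the same CK libraries, they are given side by side and their agreement is not a result.

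**Figure D2:**
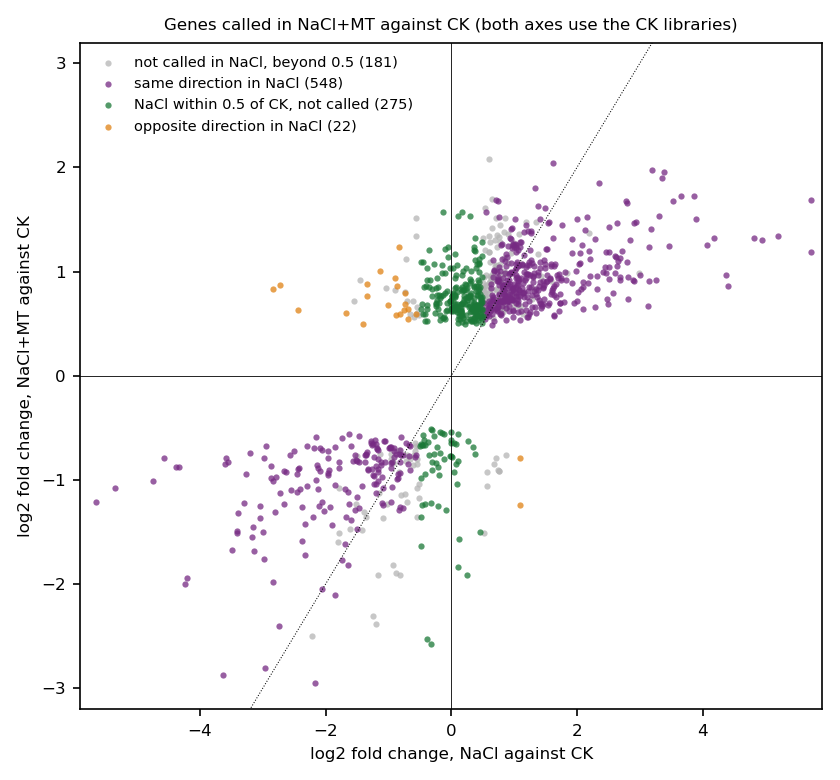
Genes called in NaCl+MT against CK, by their log2 fold change in NaCl against CK (x) and in NaCl+MT against CK (y), both on log2(FPKM + 1), the x axis spanning more units than the y axis and the dotted line marking equal values; the 49 genes not tested in NaCl against CK are left out. The 548 purple genes moved the same way in NaCl, the 275 green ones lay within 0.5 of CK in NaCl, the 22 orange ones moved the opposite way, and the 181 grey ones were not called in NaCl but lay beyond 0.5.

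Gene names were available for 1976 tested genes, 96 of them called, and 37 gene lists were assembled from these names. The lists hold 938 genes, of which 716 were tested. Of these, 41 were higher and 15 lower, 7.82% against 4.94% of all tested genes. Lists and members were chosen with earlier results of these data known, so the difference is not read as a result. The same holds for counts in single lists, to be set beside 3.64% higher and 1.31% lower over all tested genes. Named genes, which are also the better studied ones, give a partial view of the 1075.

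**Figure D3:**
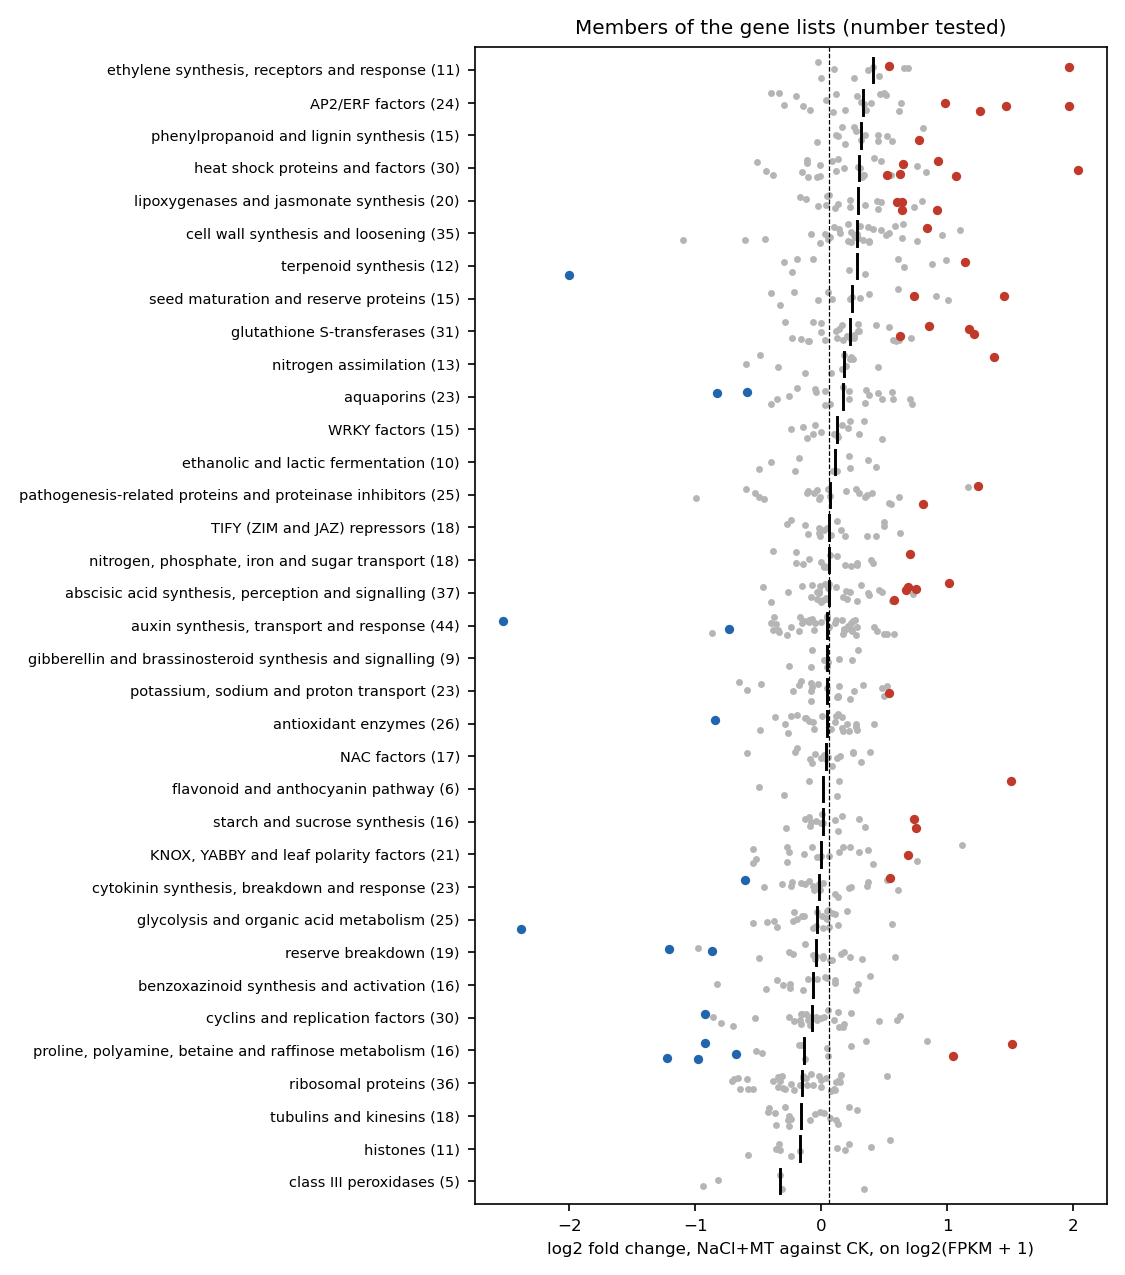
Log2 fold change between NaCl+MT and CK, on log2(FPKM + 1), of every tested member of the lists with at least 5 tested genes (number in parentheses); red points were called higher, blue lower and grey not called, black bars are list medians and the dashed line is the median of all tested genes, 0.06. Called members are rises in most lists that hold any; called falls lie in the lists of raffinose and polyamine, aquaporin, reserve breakdown, auxin, terpenoid, glycolysis and organic acid, antioxidant, cyclin and cytokinin genes.

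Several chaperone genes were higher with salt plus melatonin. Of 30 tested heat shock proteins and factors, 6 were higher and 0 lower, 20% against 4.94% of all tested genes. The list median was 0.30. HSP90-1, a member of the cytosolic chaperone family that matures signalling proteins, stood at 6.74, 8.14 and 8.06 FPKM in CK, 27.3, 23.0 and 26.2 in NaCl and 31.8, 36.1 and 35.8 in NaCl+MT. Every NaCl+MT library was above every NaCl library, and every NaCl library above CK. The log2 fold change of HSP90-1 over CK was 2.04 ± 0.13 (SE, adjusted p 2.73e-04), on this scale the largest rise among called genes with a name. At a pseudocount of 0.1 the rise of c2, described below, was larger, 2.65 against 2.16 for HSP90-1. The difference of HSP90-1 from NaCl, 0.43 ± 0.14, was not called (adjusted p 0.0798). Hsp101, the disaggregase that pulls proteins out of aggregates and is needed for heat tolerance in maize, read 6.35, 6.17 and 5.59 FPKM in CK, 8.85, 8.97 and 7.40 in NaCl and 13.2, 14.3 and 13.9 in NaCl+MT. Here the 3 groups did not overlap either; the rise over CK was 1.07 ± 0.12 (adjusted p 0.00369) and that over NaCl 0.66 ± 0.14 (adjusted p 0.0187), while NaCl against CK gave 0.42 (adjusted p 0.0922). Both genes were called without any single library. The other 4 members, named after their values were seen, were the small heat shock protein gene hsp18f (0.65, adjusted p 0.0385) and the heat shock factor genes Hsf05 (0.52, adjusted p 0.0496), Hsf17 (0.63, adjusted p 0.0337) and Hsf26 (0.93, adjusted p 0.0479). These 4 rested on the full set of libraries: hsp18f and Hsf05 were lost when any 1 of the 6 libraries was left out, and Hsf17 and Hsf26 when any of 5 was, with adjusted p up to 0.135, 0.157, 0.112 and 0.121.

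Ethylene response factors were among the largest rises that NaCl+MT shared with NaCl. ERF1, an AP2/ERF transcription factor, was at 21.2, 28.6 and 21.6 FPKM in CK, 354, 156 and 206 in NaCl and 122, 79.9 and 89.4 in NaCl+MT. The NaCl+MT libraries stood above all CK and below all NaCl libraries, with a log2 fold change of 1.97 ± 0.18 over CK (adjusted p 0.00232) and -1.23 ± 0.31 against NaCl (adjusted p 0.0362). EREB179, of the same family, showed the same order, at 35.6, 63.6 and 32.2 FPKM in CK, 476, 226 and 307 in NaCl and 134, 96.1 and 126 in NaCl+MT. Its groups did not overlap, and it was 1.47 ± 0.24 above CK (adjusted p 0.0147), a call lost without CK replicate 1 or NaCl+MT replicate 1 (adjusted p 0.00830 to 0.0568 over the leave-outs). Of 24 tested AP2/ERF factors, a list added after values were seen, 4 were higher and 0 lower, with a median of 0.33. That was 16.7% against 4.94% of all tested genes. The other called members were EREB109 (1.26 ± 0.15, adjusted p 0.00522, called in all leave-outs) and EREB27 (0.98 ± 0.19, adjusted p 0.0248, up to 0.0785 in the leave-outs and called in 1 of them). Of 11 ethylene genes, 2 were higher (18.2% against 4.94% of all tested genes): ERF1, which sits in both lists, and the receptor gene etr2. The latter read 11.2, 12.1 and 11.3 FPKM in CK and 17.5, 17.3 and 16.9 in NaCl+MT, a small shift without overlap (0.54 ± 0.12, adjusted p 0.0333) that was lost without any 1 of the 6 libraries (adjusted p 0.0653 to 0.110). EREB179 and etr2 were also not called without the filter on low values or in the fit over all 9 libraries, nor etr2 after median-ratio scaling (adjusted p 0.00758 to 0.0582 and 0.00843 to 0.110 over all alternatives). The ethylene list had a median of 0.41, the highest of the lists with at least 5 tested members.

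LOB15, of the plant-specific LOB-domain transcription factors, followed ERF1. Its levels were 4.06, 4.26 and 4.34 FPKM in CK, 29.2, 18.1 and 21.2 in NaCl and 17.2, 12.6 and 12.8 in NaCl+MT. CK libraries were nearly alike and all NaCl+MT libraries stood above them and below NaCl, giving 1.53 ± 0.15 over CK (adjusted p 0.00232), called in every leave-out, and -0.64 ± 0.21 against NaCl (adjusted p 0.0801). WRKY factors, 15 tested, and NAC factors, 17 tested, had no called member, with medians of 0.13 and 0.04. Their most abundant members were WRKY1, at 19.2 ± 0.398 FPKM (SD, n = 3) in CK and 19.2 ± 1.13 in NaCl+MT, and NAC1, at 72.4 ± 14.0 and 62.0 ± 3.71.

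Parts of abscisic acid signalling stayed above control. Of 37 tested genes of abscisic acid synthesis, perception and signalling, 5 were higher and 0 lower, 13.5% against 4.94% of all tested genes. The list median of 0.06 was that of all tested genes. SnRK2.2, of the kinase family that abscisic acid activates, was at 36.0, 53.4 and 44.7 FPKM in CK, 72.8, 106 and 94.9 in NaCl and 89.9, 93.6 and 86.7 in NaCl+MT. NaCl+MT and NaCl overlapped each other and both lay wholly above CK; the rise over CK was 1.01 ± 0.16 (adjusted p 0.0116) and was called in every leave-out. PP2C6, of the type 2C phosphatases that restrain these kinases, read 8.20, 11.2 and 10.9 FPKM in CK, 30.4, 28.0 and 24.0 in NaCl and 16.8, 16.5 and 19.6 in NaCl+MT. The NaCl+MT libraries lay between the other groups, 0.75 ± 0.15 over CK (adjusted p 0.0277), and leaving out 1 library gave adjusted p from 0.0475 to 0.0980, under 0.05 only without CK replicate 3. It was also lost without the filter and after median-ratio scaling (adjusted p 0.00560 to 0.0980 over all alternatives). The remaining calls, named after their values were seen, were the phosphatase genes PP2C17 (0.69, adjusted p 0.0270) and PP2C11 (0.58, adjusted p 0.0493) and vp1 (0.68, adjusted p 0.0467), the B3 factor of seed maturation. PP2C11 was lost in all 6 leave-outs and PP2C17 and vp1 in 5 of 6, with adjusted p up to 0.163, 0.0916 and 0.125.

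Of 15 tested seed maturation and reserve genes, 2 were higher and 0 lower, 13.3% against 4.94% of all tested genes, with a median of 0.25. EMB5, an embryo gene of this list, stood at 5.16, 3.03 and 2.97 FPKM in CK, 6.63, 4.51 and 10.7 in NaCl and 10.2, 12.1 and 12.7 in NaCl+MT. The NaCl libraries overlapped both other groups, whereas CK and NaCl+MT did not overlap; the difference was 1.45 ± 0.19 (adjusted p 0.00640) and was called in every leave-out, and NaCl against CK was not called (0.77, adjusted p 0.105). The late embryogenesis gene mlg3 read 9.43, 9.99 and 9.46 FPKM in CK, 12.8, 8.59 and 12.7 in NaCl and 14.3, 17.7 and 18.5 in NaCl+MT. All NaCl+MT libraries were above all others (0.74 ± 0.13 over CK, adjusted p 0.0203), but the call held only without NaCl+MT replicate 1 among the leave-outs (adjusted p 0.0231 to 0.0863). The 9-library fit did not call mlg3 either (adjusted p 0.00165 to 0.0863 over all alternatives). The storage globulin gene glb1, chosen after its values were seen, was just outside the threshold (1.01 ± 0.26, adjusted p 0.0581).

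Raffinose and inositol metabolism held calls in both directions. Of 16 tested genes of proline, polyamine, betaine and raffinose metabolism, 2 were higher and 4 lower, with a median of -0.14. That was 37.5% of the list against 4.94% of all tested genes. The gene mips2 encodes myo-inositol phosphate synthase, the entry into inositol and thereby raffinose synthesis, and read 2.38, 1.73 and 1.16 FPKM in CK, 0.632, 0.949 and 0.934 in NaCl and 3.55, 8.49 and 9.78 in NaCl+MT. NaCl libraries were below all CK libraries and NaCl+MT libraries above them; the rise was 1.51 ± 0.30 over CK (adjusted p 0.0284) and 2.08 ± 0.31 over NaCl (adjusted p 0.00447). NaCl+MT replicate 1 was the lowest of its group, and the call against CK held only without it (adjusted p 0.0107 to 0.0785 over the leave-outs). It was also lost without the filter on low values and with replicate numbers paired across groups (adjusted p 7.88e-04 to 0.0870 over all alternatives). The alkaline alpha-galactosidases, which split galactose off raffinose-type sugars, moved apart from each other. AGA3a fell, from 3.92, 2.68 and 4.10 FPKM in CK to 0.855, 1.38 and 0.647 in NaCl+MT, with 2.27, 1.08 and 0.380 in NaCl. CK was wholly above NaCl+MT (-1.22 ± 0.19, adjusted p 0.0116), a call kept in every leave-out but not in the fit over all 9 libraries (adjusted p 0.00547 to 0.0698 over all alternatives). Named after their values were seen, AGA2 (-0.92 ± 0.14, adjusted p 0.0126) and AGA3b (-0.68 ± 0.16, adjusted p 0.0434) were also lower, the polyamine oxidase gene mpao1 was lower (-0.98 ± 0.21, adjusted p 0.0361), and AGA1 was higher (1.05 ± 0.19, adjusted p 0.0194). AGA1 is much the most abundant of the 4 galactosidase genes, at 38.4 ± 10.1 FPKM (SD, n = 3) in CK and 78.6 ± 2.56 in NaCl+MT, against 5.55 ± 0.765 and 2.44 ± 0.290 for AGA2. Leaving out single libraries took adjusted p of AGA2, AGA3b, mpao1 and AGA1 up to 0.0549, 0.121, 0.0945 and 0.0573, and lost the calls in 1, 6, 5 and 2 of the 6 fits.

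Sucrose synthases, which split sucrose for use in sink tissues, were the 2 called genes among 16 tested starch and sucrose genes, whose median was 0.01. The called share was 12.5% against 4.94% of all tested genes. The gene sus1 read 59.1, 48.9 and 54.5 FPKM in CK, 137, 91.4 and 86.6 in NaCl and 94.9, 85.7 and 95.8 in NaCl+MT. NaCl+MT and NaCl overlapped and both were above CK; the rise over CK was 0.76 ± 0.13 (adjusted p 0.0164), lost without CK replicate 2 or NaCl+MT replicate 3 (adjusted p 0.0313 to 0.0733). For sh1, the isoform whose loss gives shrunken kernels, levels were 41.9, 35.2 and 40.6 FPKM in CK, 378, 257 and 225 in NaCl and 79.4, 58.1 and 62.3 in NaCl+MT. NaCl+MT lay far nearer CK than NaCl, 0.74 ± 0.15 above the former (adjusted p 0.0293) and -2.07 ± 0.23 from the latter (adjusted p 0.00141); the call against CK was kept only without NaCl+MT replicate 2 (adjusted p 0.0486 to 0.0818). Neither gene was called in the fit over all 9 libraries, nor sh1 without the filter (adjusted p 0.00177 to 0.0765 and 0.00438 to 0.105 over all alternatives).

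Glutathione S-transferases, which conjugate glutathione to electrophiles, were partly higher: 4 of 31 tested members rose, none fell, and the median was 0.23. The called share was 12.9% against 4.94% of all tested genes. The gene gst8 was at 2.51, 2.29 and 2.15 FPKM in CK, 5.47, 9.32 and 11.6 in NaCl and 8.27, 5.75 and 6.22 in NaCl+MT. Both treated groups lay above CK and overlapped each other; the rise was 1.21 ± 0.15 (adjusted p 0.00594), called in every leave-out. For gst35 the values were 3.92, 8.49 and 5.02 in CK, 46.3, 7.06 and 11.9 in NaCl and 12.6, 15.6 and 13.2 in NaCl+MT. NaCl+MT stood above CK (1.17 ± 0.22, adjusted p 0.0243), with adjusted p of 0.0124 to 0.0622 in the leave-outs and a call only without CK replicate 2. The fits without the filter and over all 9 libraries did not call it (adjusted p 0.00929 to 0.260 over all alternatives). The other members, named after their values were seen, were gst19 (0.86 ± 0.16, adjusted p 0.0243) and gst6 (0.63 ± 0.14, adjusted p 0.0378), lost in 2 and 5 of the 6 leave-outs with adjusted p up to 0.0861 and 0.132. Antioxidant enzymes gave 1 call, a fall, among 26 tested, with a median of 0.04. It was aox1, the alternative oxidase of mitochondria, at 4.60, 3.93 and 4.60 FPKM in CK, 1.63, 3.04 and 2.45 in NaCl and 1.94, 2.16 and 1.89 in NaCl+MT. CK was wholly above NaCl+MT (-0.84 ± 0.13, adjusted p 0.0126), and leaving out NaCl+MT replicate 3 ended the call (adjusted p 0.0330 to 0.0562 over the leave-outs). None of 5 class III peroxidases was called; the most abundant, POX3-1, was at 22.1, 43.0 and 44.5 FPKM in CK and 19.6, 16.5 and 17.1 in NaCl+MT, without overlap (-0.94 ± 0.24, adjusted p 0.0556), and leaving out CK replicate 1 or using array weights brought it under 0.05 (adjusted p 0.00195 to 0.275 over all alternatives).

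**Figure D4:**
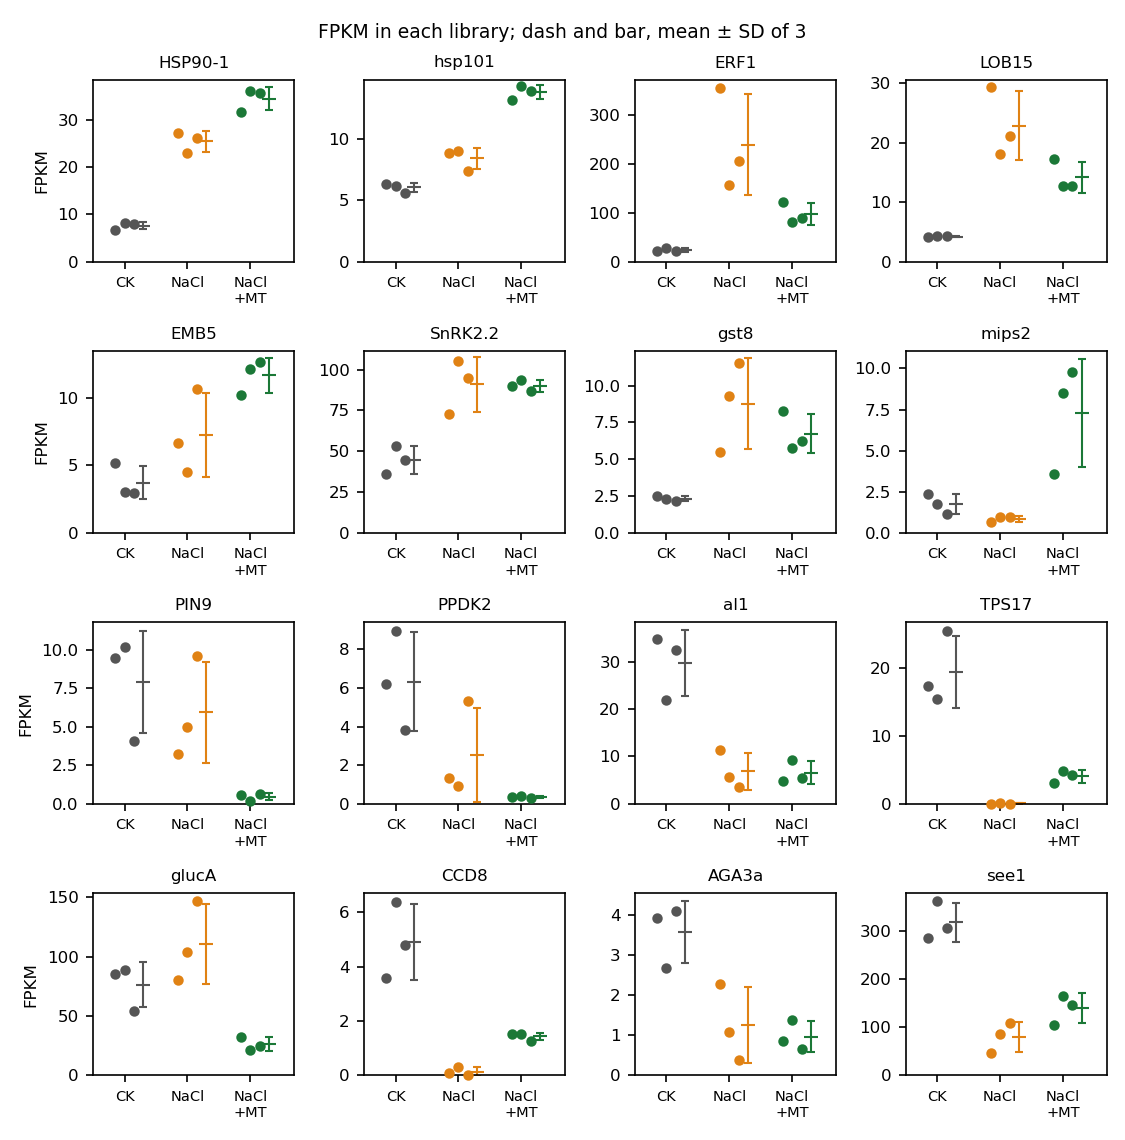
FPKM (y, linear axis from 0) of 16 genes in each of the 9 libraries, by group (x); points are libraries and the dash with its bar is the mean ± SD of 3. The genes were picked from called genes without overlap of CK and NaCl+MT. By that choice, every NaCl+MT library lies above every CK library in the first 8 and below in the last 8. The NaCl libraries lie on either side of NaCl+MT depending on the gene.

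Among called genes with a name and no overlap of CK and NaCl+MT, PIN9 fell most on the log2(FPKM + 1) scale. By the ratio of mean FPKM, PPDK2, described below, fell further, to 0.055 of CK against 0.060 for PIN9. PIN9, an auxin efflux carrier gene, was not called in NaCl. It stood at 9.44, 10.2 and 4.08 FPKM in CK, 3.26, 4.97 and 9.57 in NaCl and 0.6, 0.192 and 0.633 in NaCl+MT. All 3 NaCl+MT libraries were below all other libraries; the log2 fold change was -2.52 ± 0.28 against CK (adjusted p 0.00341) and -2.14 ± 0.32 against NaCl (adjusted p 0.00446), whereas NaCl against CK gave -0.38 ± 0.39 (adjusted p 0.531). The call against CK was kept in every leave-out. Of 44 tested auxin genes, 2 were lower and 0 higher, 4.5% against 4.94% of all tested genes, with a median of 0.05. The other was IAA12, of the Aux/IAA repressors that auxin removes, at 46.2, 36.8 and 45.8 FPKM in CK, 22.5, 18.1 and 10.4 in NaCl and 27.0, 27.5 and 21.8 in NaCl+MT. CK lay wholly above both treated groups (-0.73 ± 0.15, adjusted p 0.0278), and the call held only without CK replicate 2 (adjusted p 0.0392 to 0.0996). It was also lost without the filter and in the fit over all 9 libraries (adjusted p 0.00929 to 0.145 over all alternatives).

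PPDK2, encoding pyruvate orthophosphate dikinase, which links pyruvate to phosphoenolpyruvate, was lower as well. Its levels were 6.19, 8.96 and 3.82 FPKM in CK, 1.33, 0.916 and 5.30 in NaCl and 0.337, 0.399 and 0.301 in NaCl+MT. Each NaCl+MT library was below each of the others, with -2.38 ± 0.23 against CK (adjusted p 0.00232); NaCl against CK was not called (-1.20 ± 0.45, adjusted p 0.0966), NaCl replicate 3 being at the CK level. Of 25 tested genes of glycolysis and organic acid metabolism it was the 1 call, and the list median was -0.04. PPCK1, the kinase of phosphoenolpyruvate carboxylase, also fell, from 7.48, 7.78 and 7.95 FPKM in CK to 3.10, 4.54 and 4.27 in NaCl+MT, with 2.36, 10.2 and 8.37 in NaCl. CK and NaCl+MT did not overlap (-0.83 ± 0.15, adjusted p 0.02), but the call was lost without CK replicate 1, CK replicate 2 or NaCl+MT replicate 3 (adjusted p 0.0371 to 0.0604). Against NaCl the difference of PPCK1 was not called (-0.52 ± 0.41, adjusted p 0.45). The gene glucA stood at 85.0, 89.0 and 54.3 FPKM in CK, 80.4, 104 and 147 in NaCl and 32.3, 20.8 and 24.6 in NaCl+MT. NaCl+MT was below every other library, -1.51 ± 0.22 from CK (adjusted p 0.00945) and -2.03 ± 0.25 from NaCl (adjusted p 0.00201), and the call was kept in every leave-out. ZCN16, of the family of phosphatidylethanolamine-binding proteins that holds the florigens, read 5.55, 4.17 and 3.04 FPKM in CK and 0.846, 1.25 and 1.66 in NaCl+MT. It was lower without overlap (-1.21 ± 0.21, adjusted p 0.0161), a call lost without CK replicate 2 or NaCl+MT replicate 1 (adjusted p 0.0179 to 0.0515). PPCK1 and ZCN16 were not called without the filter, nor PPCK1 in the fit over all 9 libraries (adjusted p 0.00378 to 0.260 and 0.00308 to 0.0604 over all alternatives).

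Of 12 tested terpenoid genes, 1 was lower and 1 higher, 16.7% against 4.94% of all tested genes, with a median of 0.29. The lower one, TPS17, a terpene synthase gene, was at 17.4, 15.4 and 25.5 FPKM in CK, 0.0150, 0.179 and 0 in NaCl and 3.05, 4.84 and 4.28 in NaCl+MT. NaCl libraries were at or near 0 and NaCl+MT libraries lay between them and CK, -2.001 against CK (adjusted p 0.00248) and 2.23 ± 0.19 over NaCl (adjusted p 4.59e-04). CCD8 and al1, which are in no list and are described as large falls by rule, were lower as well. CCD8, the carotenoid cleavage dioxygenase of strigolactone synthesis, was at 3.58, 6.38 and 4.81 FPKM in CK, 0.0890, 0.294 and 0 in NaCl and 1.5, 1.5 and 1.26 in NaCl+MT. Its groups did not overlap, with -1.26 ± 0.18 against CK (adjusted p 0.00945) and 1.11 ± 0.16 over NaCl (adjusted p 0.00434). The gene al1 was low in both treated groups, at 34.9, 21.8 and 32.4 FPKM in CK, 11.3, 5.72 and 3.60 in NaCl and 4.80, 9.29 and 5.48 in NaCl+MT. CK was wholly above both, -2.05 ± 0.24 from NaCl+MT (adjusted p 0.00433); TPS17, CCD8 and al1 were called in every leave-out. The higher terpenoid gene, an2, encodes a copalyl diphosphate synthase of defence diterpenoids and read 15.2, 10.9 and 7.62 FPKM in CK, 93.4, 57.9 and 69.4 in NaCl and 36.5, 19.7 and 21.9 in NaCl+MT. NaCl+MT lay above CK and below NaCl, 1.14 ± 0.27 over CK (adjusted p 0.0434), with adjusted p of 0.0497 to 0.105 in the leave-outs and a call only without NaCl+MT replicate 2. Median-ratio scaling, quantile normalisation, no filter and the 9-library fit each ended that call (adjusted p 0.00699 to 0.106 over all alternatives).

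Phenolic metabolism gave 1 call in each of its lists. The gene c2 encodes chalcone synthase, the entry to flavonoids, and was at 0.390, 0.637 and 0.206 FPKM in CK, 15.9, 20.6 and 23.7 in NaCl and 5.64, 1.77 and 2.45 in NaCl+MT. Its groups did not overlap; NaCl+MT was 1.51 ± 0.29 over CK (adjusted p 0.0244) and -2.38 ± 0.31 against NaCl (adjusted p 0.00276). The first call was lost when any CK replicate was left out (adjusted p 0.0182 to 0.0715), and c2 was the only 1 called of 6 tested flavonoid genes, whose median was 0.01. Among 15 phenylpropanoid genes, with a median of 0.32, the 1 call was LAC1, a laccase gene, of the oxidases that couple lignin monomers, at 28.6, 41.1 and 28.1 FPKM in CK, 20.8, 29.5 and 40.0 in NaCl and 66.6, 50.3 and 52.0 in NaCl+MT. NaCl+MT was above all other libraries (0.78 ± 0.18 over CK, adjusted p 0.0412), although only without CK replicate 2 was the call kept (adjusted p 0.0345 to 0.104). Without the filter neither c2 nor LAC1 was called, and LAC1 was also lost after median-ratio scaling and in the fit over all 9 libraries (adjusted p 0.00706 to 0.0771 and 0.0318 to 0.129 over all alternatives). Benzoxazinoid genes, which make the indole-derived defence compounds of young maize, had 0 of 16 members called; the list median was -0.07, beside -1.09 in NaCl. The most abundant, bx1, was at 2832, 5971 and 4664 FPKM in CK, 0.211, 195 and 339 in NaCl and 2229, 2692 and 2359.9 in NaCl+MT. All NaCl+MT libraries were below all CK libraries, a difference that was not called (-0.83 ± 0.29, adjusted p 0.122) except with array weights (adjusted p 0.0147 to 0.833 over all alternatives), and NaCl replicate 1 stood near 0.

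Reserve breakdown held 2 falls among 19 tested genes, 10.5% against 4.94% called and 1.31% lower over all tested genes, with a median of -0.04. The cysteine protease gene see1, first known from senescing leaves, was at 285, 362 and 306 FPKM in CK, 46.5, 84.7 and 108 in NaCl and 105, 165 and 146 in NaCl+MT. NaCl+MT was wholly below CK and overlapped NaCl narrowly, with -1.21 ± 0.19 against CK (adjusted p 0.0126) and a call in every leave-out, though not in the fits over all 9 libraries or without the filter (adjusted p 0.00129 to 0.0733 over all alternatives). Amy2, an amylase gene of starch breakdown, read 36.9, 49.3 and 34.7 FPKM in CK, 14.4, 14.4 and 22.6 in NaCl and 20.6, 22.6 and 21.0 in NaCl+MT. It was lower than CK without overlap (-0.87 ± 0.15, adjusted p 0.0173), lost without NaCl+MT replicate 1 or 3 (adjusted p 0.0272 to 0.0620). In nitrogen assimilation, 1 of 13 tested genes was called, with a median of 0.18: asn3, an asparagine synthetase gene, at 5.47, 3.17 and 2.66 FPKM in CK, 179.6, 5.99 and 6.36 in NaCl and 8.47, 8.20 and 18.7 in NaCl+MT. NaCl+MT was above CK (1.37 ± 0.31, adjusted p 0.0384), NaCl replicate 1 stood far above all other libraries, and the call was kept only without NaCl+MT replicate 2 (adjusted p 0.0426 to 0.101). No filter, pairing of replicate numbers across groups, median-ratio scaling, quantile normalisation and the 9-library fit also ended the call of asn3 (adjusted p 0.00828 to 0.504 over all alternatives). The first and last of these ended that of Amy2 (adjusted p 0.00165 to 0.0620).

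Of 25 tested pathogenesis-related proteins and proteinase inhibitors, 2 were higher and 0 lower, 8% against 4.94% of all tested genes, and the list median was 0.07 beside 1.11 in NaCl. The thaumatin-like protein gene pr5 was at 113, 141 and 118 FPKM in CK, 2735, 1151 and 825 in NaCl and 458, 191 and 288 in NaCl+MT. The groups did not overlap; NaCl+MT was 1.25 ± 0.27 over CK (adjusted p 0.0364) and -2.23 ± 0.49 against NaCl (adjusted p 0.0219), the first called only without NaCl+MT replicate 2 among the leave-outs (adjusted p 0.0169 to 0.0993). The chitinase gene chiB read 66.3, 83.2 and 93.0 FPKM in CK, 356, 236 and 175 in NaCl and 125, 144 and 155 in NaCl+MT. It was above CK without overlap (0.81 ± 0.16, adjusted p 0.0277), and was lost without CK replicate 1 or 2 or NaCl+MT replicate 2 or 3 (adjusted p 0.0371 to 0.0954). Both were lost without the filter, after median-ratio scaling and in the fit over all 9 libraries (adjusted p 0.0169 to 0.158 and 0.00237 to 0.129 over all alternatives).

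Jasmonate and oxylipin genes held 4 rises over control after salt plus melatonin, and 2 of these genes were lower after salt alone. Of 20 tested lipoxygenase and jasmonate synthesis genes, 4 were higher and 0 lower, 20% against 4.94% of all tested genes. The list median was 0.29, beside -0.36 in NaCl. The lipoxygenase gene lox6 was at 14.3, 18.4 and 16.7 FPKM in CK, 4.04, 5.35 and 4.07 in NaCl and 26.5, 25.0 and 24.9 in NaCl+MT. CK lay between the treated groups without overlap, with 0.60 ± 0.13 in NaCl+MT (adjusted p 0.0344) and -1.67 ± 0.17 in NaCl (adjusted p 5.45e-04). For aos2, an allene oxide synthase gene of jasmonate synthesis, the values were 5.49, 5.44 and 6.24 in CK, 2.77, 3.97 and 2.90 in NaCl and 10.2, 9.24 and 9.02 in NaCl+MT. Again CK lay between, 0.64 ± 0.13 below NaCl+MT (adjusted p 0.0277) and with NaCl at -0.68 ± 0.17 from CK (adjusted p 0.0275). The lipoxygenase gene lox5 read 9.30, 7.54 and 6.61 FPKM in CK, 4.19, 5.35 and 6.42 in NaCl and 14.3, 12.0 and 11.8 in NaCl+MT, its highest levels being in NaCl+MT (0.64 ± 0.15, adjusted p 0.0445). The oxophytodienoate reductase gene opr2 was instead higher in both treated groups, at 2.83, 1.92 and 2.54 FPKM in CK, 4.60, 14.7 and 16.2 in NaCl and 7.56, 4.29 and 4.88 in NaCl+MT (0.92 ± 0.20 over CK, adjusted p 0.0349). All 4 depended on the full set of libraries: lox6 was lost in every leave-out (adjusted p 0.0547 to 0.102), aos2 was called only without CK replicate 3 (adjusted p 0.0421 to 0.0863), lox5 only without CK replicate 1 (adjusted p 0.0460 to 0.109) and opr2 only without NaCl+MT replicate 2 (adjusted p 0.0403 to 0.0980). Each was also lost without the filter and in the fit over all 9 libraries, lox6 and lox5 after median-ratio scaling, and aos2, lox5 and opr2 after quantile normalisation (adjusted p up to 0.102, 0.0863, 0.109 and 0.228 for lox6, aos2, lox5 and opr2). None of 18 tested TIFY repressors of jasmonate signalling was called, with a median of 0.06; the most abundant, TIFY27, was at 75.4 ± 10.2 FPKM (SD, n = 3) in CK and 89.8 ± 35.0 in NaCl+MT.

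The opposite pattern also held for HAK8 and rs2, which with lox6 and aos2 were those of the 22 with a name and no overlap of CK and NaCl+MT. HAK8, of the high-affinity potassium transporter family, was at 9.98, 9.29 and 10.2 FPKM in CK, 4.04, 7.47 and 6.05 in NaCl and 14.8, 14.7 and 14.8 in NaCl+MT. CK lay between the treated groups without overlap, 0.54 ± 0.12 below NaCl+MT (adjusted p 0.0347), and the call was lost in every leave-out (adjusted p 0.0614 to 0.119); it was the 1 call among 23 tested ion transport genes, whose median was 0.05. The gene rs2, a MYB factor that keeps KNOX genes off in leaf primordia, read 2.45, 2.01 and 1.82 FPKM in CK, 0.563, 1.26 and 0.803 in NaCl and 4.61, 3.19 and 4.26 in NaCl+MT. It was highest in NaCl+MT and lowest in NaCl (0.69 ± 0.16 over CK, adjusted p 0.0412), the call being kept only without NaCl+MT replicate 2 (adjusted p 0.0489 to 0.126), and it was the 1 call of 21 shoot patterning factors, whose median was 0.00. HAK8 and rs2 were also not called without the filter, after median-ratio scaling or quantile normalisation, or in the fit over all 9 libraries (adjusted p 0.00509 to 0.149 and 0.0125 to 0.126 over all alternatives).

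Some genes were not called under salt and lay within 0.5 log2 of CK there. Besides PIN9, hsp101 and PPCK1 above, the largest changes with a name among them were in PDIL5-1 and bHLH53. PDIL5-1, of the protein disulfide isomerases that fold secreted proteins, fell from 184, 139.5 and 139 FPKM in CK to 62.1, 81.0 and 90.7 in NaCl+MT, with 85.7, 115 and 132 in NaCl. CK was wholly above NaCl+MT (-0.98 ± 0.18, adjusted p 0.0204), with a call lost without CK replicate 1 or NaCl+MT replicate 1 (adjusted p 0.0363 to 0.0568). CK was also wholly above NaCl (-0.48, adjusted p 0.156), and NaCl+MT against NaCl was not called (-0.50, adjusted p 0.172). The factor gene bHLH53 read 2.83, 2.22 and 2.33 FPKM in CK, 3.62, 2.81 and 2.33 in NaCl and 6.96, 4.08 and 4.92 in NaCl+MT. All NaCl+MT libraries were above all others (0.85 ± 0.18 over CK, adjusted p 0.0335), and leaving out any library but NaCl+MT replicate 2 lost the call (adjusted p 0.0367 to 0.0927). Its difference from NaCl, 0.68 ± 0.21, was not called (adjusted p 0.0722). Both genes were lost without the filter and in the fit over all 9 libraries, and bHLH53 after quantile normalisation (adjusted p 0.00581 to 0.0605 and 0.00695 to 0.0927 over all alternatives).

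In lists that mark growth, the counts are small and are to be read against the 4.94% called over all tested genes. Histones had 0 of 11 members called and a median of -0.17, beside -1.21 in NaCl; the most abundant, his2a1, stood at 609.8, 417 and 485 FPKM in CK, 106, 348 and 232 in NaCl and 394, 383 and 406 in NaCl+MT. NaCl+MT was below CK in each library (-0.34 ± 0.17, adjusted p 0.272), a difference that was not called. Tubulins and kinesins had 0 of 18 called and a median of -0.16, with tua4 at 197 ± 30.5 FPKM (SD, n = 3) in CK and 212 ± 22.9 in NaCl+MT, and ribosomal proteins 0 of 36 called and a median of -0.16, with rps4 at 596 ± 84.2 and 509 ± 34.6. A p that misses the threshold does not show that these levels were equal. Of 30 cyclins and replication factors, with a median of -0.07, 1 was called: cyclin8, a gene of the cell cycle regulators, fell from 17.0, 11.3 and 15.7 FPKM in CK to 5.49, 8.14 and 8.27 in NaCl+MT, with 0.943, 1.76 and 1.92 in NaCl. NaCl+MT lay between CK and NaCl without overlap, -0.92 ± 0.19 from CK (adjusted p 0.0315) and 1.71 ± 0.22 from NaCl (adjusted p 0.00251), the first called only without CK replicate 2 among the leave-outs (adjusted p 0.0365 to 0.0857). It was not called without the filter or in the fit over all 9 libraries (adjusted p 0.0186 to 0.0857 over all alternatives).

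Water channels and cell wall genes gave 3 calls together. Of 23 tested aquaporins, 2 were lower, 8.7% against 4.94% called over all tested genes, although the list median was 0.17, beside -0.66 in NaCl. Both are of the tonoplast type: tip4a read 3.02, 3.49 and 2.73 FPKM in CK, 0.204, 0.619 and 0.962 in NaCl and 1.16, 1.54 and 1.21 in NaCl+MT, and tip4b 3.21, 2.96 and 3.40, 1.07, 1.38 and 1.85 and 1.49, 2.02 and 1.86. CK was wholly above NaCl+MT in both, with a log2 fold change of -0.83 ± 0.14 for tip4a (adjusted p 0.0173), lost without CK replicate 2 or NaCl+MT replicate 3 (adjusted p 0.0314 to 0.0710), and of -0.59 ± 0.14 for tip4b (adjusted p 0.0442), lost in every leave-out (adjusted p 0.0853 to 0.120). Of 35 cell wall genes, with a median of 0.29, 1 was called, 2.86% against 4.94% of all tested genes. It was expa2, an expansin gene, of the proteins that loosen walls, at 86.9, 84.0 and 80.1 FPKM in CK, 164, 281 and 380.5 in NaCl and 198, 119 and 145 in NaCl+MT. Both treated groups were above CK (0.84 ± 0.18, adjusted p 0.0352), and the call was kept only without NaCl+MT replicate 2 (adjusted p 0.0322 to 0.0899). All 3 were lost without the filter and in the fit over all 9 libraries, and expa2 after median-ratio scaling (adjusted p 0.00276 to 0.0710, 0.0188 to 0.120 and 0.0106 to 0.158 over all alternatives).

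Cytokinin genes had 1 rise and 1 fall among 23 tested, 8.7% against 4.94% called over all tested genes, with a median of -0.01. RR6, a response regulator gene, was at 32.0, 31.4 and 39.4 FPKM in CK, 7.88, 11.6 and 9.47 in NaCl and 20.3, 25.8 and 20.7 in NaCl+MT, and ZmHK1b2, of the histidine kinase receptors, at 6.59, 7.72 and 6.46, 6.25, 8.17 and 9.91 and 10.3, 10.7 and 10.7. RR6 was lower (-0.60 ± 0.15, adjusted p 0.0494) and ZmHK1b2 higher (0.55 ± 0.13, adjusted p 0.0412) than CK without overlap, and both calls were lost in every leave-out (adjusted p 0.0646 to 0.15 and 0.0654 to 0.132). In nitrogen, phosphate, iron and sugar transport, 1 of 18 genes was called, with a median of 0.06: ysl12, of the yellow stripe-like metal carriers, at 7.52, 6.95 and 6.18 FPKM in CK, 46.6, 23.0 and 16.9 in NaCl and 14.9, 9.94 and 11.2 in NaCl+MT. It lay above CK (0.71 ± 0.16, adjusted p 0.0412) and was lost in every leave-out (adjusted p 0.0528 to 0.0996). RR6, ZmHK1b2 and ysl12 were also lost without the filter, after quantile normalisation and in the fit over all 9 libraries, the latter 2 after median-ratio scaling, and RR6 under both other pseudocounts, a constant FPKM sum, no trend and a minimum of 5 FPKM (adjusted p 0.0222 to 0.15, 0.0124 to 0.132 and 0.0117 to 0.245 over all alternatives). Gibberellin and brassinosteroid genes (0 of 9 called, median 0.05), fermentation genes (0 of 10, median 0.11) and the photosynthesis genes that passed the filter (0 of 4, of 23 in the list) held no call. Their most abundant members were Dwarf1, at 73.2 ± 14.2 FPKM (SD, n = 3) in CK and 77.0 ± 21.1 in NaCl+MT, rf2, an aldehyde dehydrogenase gene, at 351 ± 38.6 and 311 ± 45.5, and L-FNRI, a ferredoxin reductase gene of leaves, at 6.98 ± 0.919 and 4.69 ± 0.617. The summed level of the 23 photosynthesis genes was 13.5 to 15.8 FPKM in CK and 13.9 to 15.9 in NaCl+MT. The 1 endosperm gene that passed the filter, O10, was at 2.73 ± 0.322 FPKM in CK and 4.04 ± 0.228 in NaCl+MT and was not called (adjusted p 0.0894). With array weights, L-FNRI and O10 were called (adjusted p 0.0209 to 0.236 and 0.0353 to 0.254 over all alternatives).

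On the log2(FPKM + 1) scale, the largest called changes of all lay mostly in genes without a name here. GRMZM2G153096 rose from 3.58, 3.45 and 1.52 FPKM in CK to 12.4, 14.8 and 17.4 in NaCl+MT, with 5.59, 4.81 and 3.67 in NaCl. All NaCl+MT libraries were above all others, 2.08 ± 0.23 over CK (adjusted p 0.00341) and 1.48 ± 0.19 over NaCl (adjusted p 0.00226). GRMZM2G179728 fell from 7.47, 9.65 and 5.82 FPKM in CK to 0.0270, 0.0780 and 0.205 in NaCl+MT, with 0.0450, 0.354 and 3.84 in NaCl. CK was wholly above both treated groups, -2.95 ± 0.18 from NaCl+MT (adjusted p 2.73e-04). GRMZM2G063431 stood at 73.2, 71.6 and 103 FPKM in CK, 3.94, 10.2 and 4.40 in NaCl and 7.46, 14.6 and 9.84 in NaCl+MT, low in both treated groups (-2.87 ± 0.23 against CK, adjusted p 0.00167), and these 3 calls were kept in every leave-out. By level, calls made up 10.7% of the 215 genes with a mean under 1 FPKM, 5.96% of genes with a mean of 1 to 5 FPKM, 4.70% at 5 to 20, 3.75% at 20 to 100 and 3.14% above 100. A gene with a low mean could pass the filter through 1 group alone, the group where it was high. The shares at low levels are thus set in part by the filter and are not read as a result.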

How the data were processed

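The authors' deposited table gives FPKM for 39301 genes in 9 libraries, made per the labels' protocols with an NEB mRNA kit from total RNA. HISAT2, featureCounts, DESeq2 and the build B73 RefGen_v3 are named in the submitters' processing notes, without versions or roles, and strand use is not given in the sources used here, so overlapping, antisense and near-identical genes may share reads. Absolute depth is unknown and no counting intervals were computed.

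Values were taken as log2(FPKM + 1) with a pseudocount of 1. Genes at 1 FPKM or more in at least 3 of the 6 CK and NaCl+MT libraries were fitted with limma 3.58.1 (R 4.3.3) as 2 group means with a mean-variance trend, tested 2-sided and adjusted by Benjamini-Hochberg over all tested genes, threshold 0.05. The reference values for NaCl, against CK and against NaCl+MT, came from fits of the same kind on their own 6 libraries. A gene was near CK in NaCl if it was not called there and within 0.5 log2. The fit was first run on simulated data with independent normal noise and 200 changed genes. That run checked the code and does not show how reliable the calls in these libraries are.

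Names came from the synonyms of a RefSeq gene table of another assembly, Zm-B73-REFERENCE-NAM-5.0. It matched 18908 IDs, 18387 of them to exactly 1 gene, and gave 2544 names; no coordinates were used. The members and lists were chosen with earlier results of these data known. Named were the 8 largest rises and 8 largest falls with a name and no overlap of the groups, up to 2 called genes per list (or its most abundant), the 5 largest of each kind and the 2 largest in each direction over all genes; other list members are named as chosen after their values were seen. Alternatives were other pseudocounts, filters, scalings and weights, a replicate block, a fit on all 9 libraries and leaving out single libraries.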

Additional observations from a re-analysis of the deposited data

How the results depend on the processing

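Counts of called genes depended on the processing. Directions were followed only in the named genes, mostly picked as called without overlap of the groups, so they cannot be set against these counts. With the main counts at 791 higher and 284 lower genes, and 548, 275 and 22 genes changed alike, near CK in NaCl and opposite, no filter on low values gave 208, 95, 153, 75 and 4, a minimum of 5 FPKM gave 434, 181, 320, 129 and 9, array weights 2248, 844, 1267, 1329 and 95, and a fit on all 9 libraries 187, 72, 190, 42 and 3. Median-ratio scaling gave 424 higher and 371 lower genes and 9 opposite; quantile normalisation gave 368 and 364, with 169 near CK in NaCl and 14 opposite. Leaving out 1 library at a time gave 187 to 425 higher, 104 to 164 lower, 173 to 532 alike, 44 to 324 near CK in NaCl and 1 to 28 opposite genes; fewer libraries enter these fits. Pseudocounts of 0.1 and 0.5, a constant FPKM sum and a fit without the trend kept all these counts within 1.5 times.

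The replicate block, with replicate numbers paired across groups, gave 577 higher and 209 lower genes, with 142 near CK in NaCl and 14 opposite. With it, 14 named genes lost their call, among them mips2 and asn3. For the other genes, losses under this block are not listed above. Deviations of same-numbered CK and NaCl+MT libraries correlated at 0.15, 0.01 and -0.08, so the numbers were not taken to pair the libraries.

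Of 64 named genes, 52 were called, 16 of these under every alternative that gave a value (a minimum of 5 FPKM gave none for 14 genes, 3 of the 16 included) and 18 without any single library. Signs turned in 4 genes that were not called: tua4 without CK replicate 2 (-0.0057, up to 0.22 over the leave-outs), Dwarf1 with median-ratio scaling (-0.033), array weights (-0.23), without CK replicate 1 (-0.10) and without NaCl+MT replicate 1 (-0.15, up to 0.18), TIFY27 with array weights (-0.000706) and without NaCl+MT replicate 1 (-0.11, up to 0.36), and WRKY1 with a constant sum (0.020), without CK replicate 2 (0.01) and without NaCl+MT replicate 2 (0.00) or 3 (0.034, down to -0.045 over the leave-outs). In all of these the cause was not tested. The unadjusted p was under 0.05 for 5268 genes.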
